A study of Mus musculus with 17 samples.

Results

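The classical target genes of the PPAR nuclear receptors were followed in the lungs of mice that drank PFOA or vehicle, namely Pdk4, Angptl4, Cpt1a, Plin2, Acot1, Acot2, Ucp3 and Pex11a. The members were the 8 rows with these symbols among the 31245 genes of the deposited table, and all 8 passed the filter of at least 20 counts in total that left 26946 genes to test. They were named as known PPAR targets, and the rule used no value of these libraries. The choice of these genes was, however, made with earlier results of these data known.

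The lungs of 17 mice in 6 groups gave 1 RNA library each, with 2 libraries of wildtype (WT) mice on vehicle and 3 libraries in each of the other groups. The null group carried no functional mouse PPARα (PPARa KO, here KO), and the humanized group carried the human receptor in place of the mouse one (hPPARa KI, here KI). The exposed mice, labelled Hi-PFOA, had 6.2 μg/mL PFOA in drinking water for 14 weeks from 6 weeks of age, and the vehicle was water with 0.5% sucrose, which the PFOA water held too. All groups ate the same custom diet, modelled on that of adults in the USA. The WT mice were purchased Sv/129 animals, whereas KO and KI mice were bred together from null and humanized heterozygous pairs, so a difference of either from WT cannot be told apart from a difference between the colonies. The 6 KO libraries were all from females. WT held 1 female and 1 male on vehicle and 1 female and 2 males on PFOA, and KI held 2 females and 1 male in each exposure. Libraries with one of the i5 index primers were only WT and KI, and all KO PFOA libraries shared another.

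PPARα is a receptor that fatty acids and fibrate drugs activate. It pairs with RXR, binds DNA as this pair, and in liver, heart and muscle turns on genes that burn fat, above all during fasting. PFOA activates it in rodent liver. Most genes followed here answer to other signals too, since PPARδ and PPARγ share the binding sequence, and glucocorticoids and fasting raise Pdk4 and Angptl4. Pdk4 is the kinase that shuts off pyruvate dehydrogenase and so spares glucose. Angptl4 is a secreted inhibitor of lipoprotein lipase. Cpt1a loads long-chain fatty acids for entry into mitochondria, and Plin2 coats lipid droplets. Acot1 in the cytosol and Acot2 in mitochondria release fatty acids from coenzyme A. Ucp3 is a carrier of the mitochondrial inner membrane, best known from muscle and brown fat. Pex11a is a membrane protein of peroxisomes that takes part in their division.

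The genes lie on 6 chromosomes of GRCm38 (mm10), and each count covers the exons of the whole gene. Pdk4 spans chr6:5483351-5496309, Angptl4 chr17:33773750-33781830, Cpt1a chr19:3322334-3385733 and Plin2 chr4:86648386-86670060. Acot2 at chr12:83987861-83993873 and Acot1 at chr12:84009490-84018371 are neighbours on the plus strand, 15617 bases apart. Ucp3 at chr7:100472990-100486432 and Pex11a at chr7:79735957-79743131 each overlap an antisense gene on the opposite strand, with 0 exon bases in common. Of the 80-base windows of the Acot1 and Acot2 transcripts, 14.5% and 20.1% occur in another gene, 419 of them in both. The estimated counts of Acot1 were not whole numbers in 16 libraries and those of Acot2 in 17 (more than 0.01 from a whole number), so how the reads were split between this pair is uncertain. The other 6 members had whole counts in every library, to the same tolerance.

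The promoters were read for the PPAR binding sequence, which is a pair of AGGTCA half-sites with a single base of any kind between them. RefSeq promoter windows of 300 bases (250 before the start and 50 after it, GRCm38.p6) were on hand for 7 of the 8 genes, all except Angptl4. Both strands were searched for the 12 letters of the half-site pair. No window of a member held all 12 letters, and among all 32851 windows only 13 (0.0396%) did. Of the members, 2 windows, those of Plin2 and Ucp3, came within 2 letters. Among all windows, 3.86% did so. These are the stretches that came closest, shown 5′ to 3′ on the strand of the gene with the pair and its spacer in capitals, at chr4:86670247-86670309 (minus strand) for Plin2 and chr7:100472915-100472977 (plus strand) for Ucp3:
Plin2: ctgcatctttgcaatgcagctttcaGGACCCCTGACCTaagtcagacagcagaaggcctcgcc
Ucp3: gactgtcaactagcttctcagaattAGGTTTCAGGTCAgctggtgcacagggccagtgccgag
In Plin2 the pair read on the opposite strand and began 225 bases before the start, and in Ucp3 it read on the strand of the gene, 51 bases before the start. At least 1 AGGTCA half-site on either strand was found in 3 of the 7 windows, those of Cpt1a, Plin2 and Ucp3, against 16.3% of all windows. A match is only a likeness of letters, and binding was not measured. Sequence outside these windows was not searched, so a site elsewhere in or near a member would be missed.

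Library totals ranged from 4116118 to 9237356 counts (median 7524757). At this depth 3 counts correspond to 0.325 to 0.729 CPM (counts scaled to a common library size with TMM factors), below every value of a member. WT vehicle library 122 and KO vehicle library 137 stood apart, with 65.3% and 61.3% of counts in protein-coding genes against 74.4% to 80.4% in the others, and values without both are given where a result rested on them. Lung markers were present in every library: Sftpc of type 2 cells was at 677 CPM or more, Ager of type 1 cells at 435 or more and Pecam1 of endothelium at 239 or more, whereas Alb of hepatocytes was at 3.59 or less. Ppara was not lower in the KO libraries. It was at 4.39 to 7.21 CPM in the 5 WT libraries, 8.82 to 11.7 in the 6 KO libraries and 9.08 to 20.4 in the 6 KI libraries. With edgeR, Ppara was higher than in WT by 0.78 in KO (log2, adjusted p = 0.036) and by 1.29 in KI (adjusted p = 0.000577), over both exposures. A count over all exons does not show whether the part missing from the null allele was absent, so it checks no genotype label. The mice of a group were different animals, so the spread between libraries is that between mice.

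Per kilobase of exon, Plin2 was the most abundant member, at 17.4 ± 3.90 CPM per kb (SD, n = 17 libraries), followed by Cpt1a at 16.4 ± 3.05, Angptl4 at 14.4 ± 6.29 and Pdk4 at 13.4 ± 12.6. These neighbours in the order differed by less than their spread. Acot2 at 7.90 ± 1.67, Acot1 at 5.29 ± 1.81, Pex11a at 3.42 ± 0.770 and Ucp3 at 1.299 ± 0.420 CPM per kb made up the lower part of the order. Ucp3 was near the floor, with 14 to 50 counts per library.

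**Figure D1:**
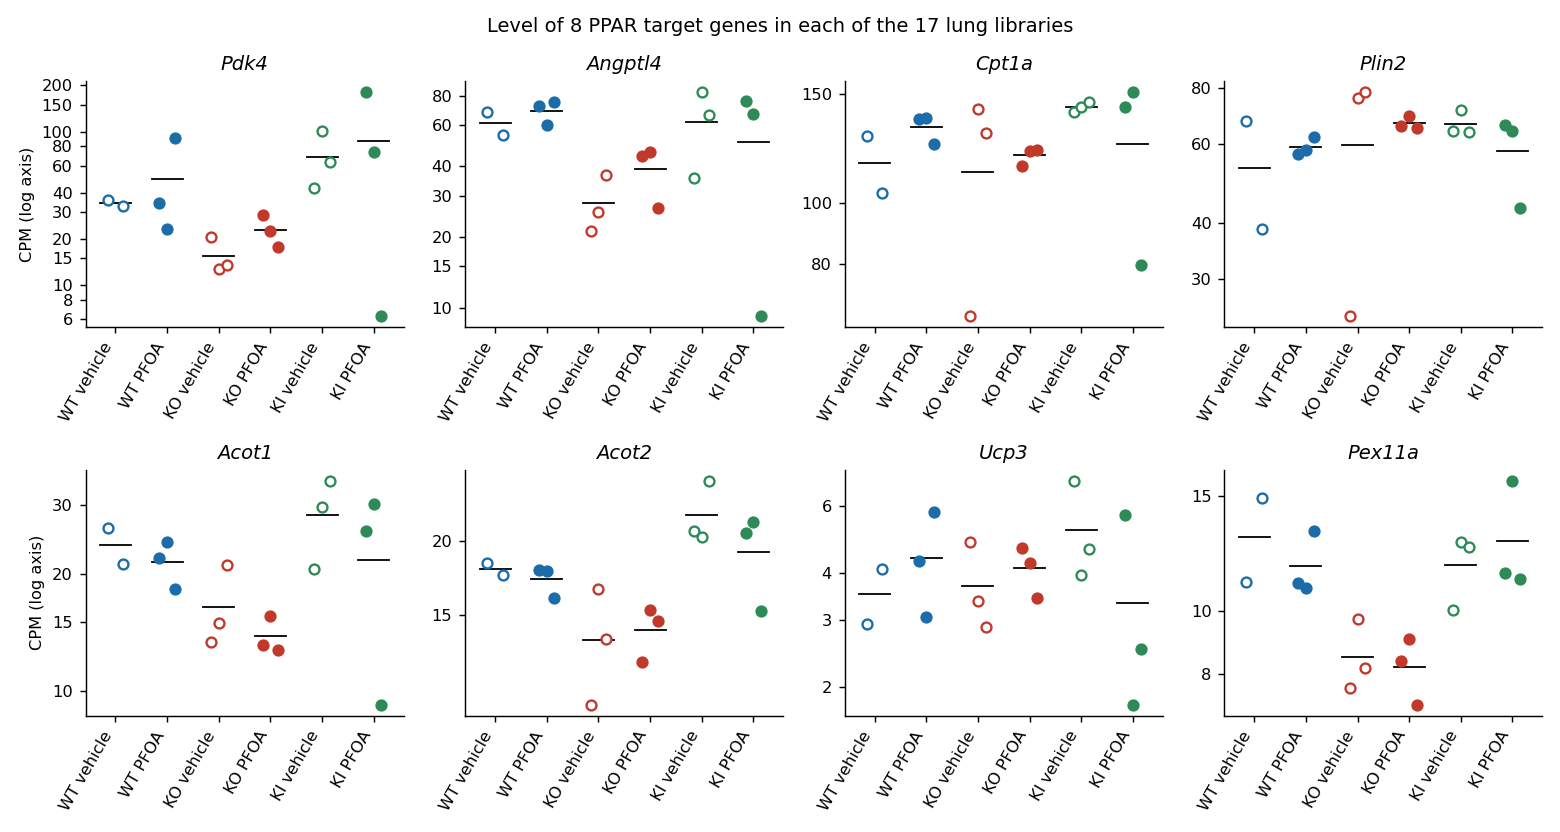
CPM of each member in each library on a log axis, with open circles for vehicle, filled circles for PFOA and a line at the mean of each group (2 libraries in WT vehicle, 3 in each other group). PFOA and vehicle libraries overlap within each genotype for all 8 genes, while the KO libraries lie below the WT libraries for Angptl4 and Pex11a.

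The first question was whether PFOA raised these genes, and whether this required the receptor. None of the 8 members passed the test for PFOA in any genotype. With edgeR's quasi-likelihood test, a gene was called at an adjusted p under 0.2 (Benjamini-Hochberg over all genes) and a fold change over 2, and 0 of 8 members were called in WT, KO or KI, against a background of 0% of all genes in each. At an unadjusted p under 0.05 the members numbered 0 as well, against 7.35% of all genes in WT, 9.79% in KO and 2.59% in KI. DESeq2, run on the same genes, called 0 members too, with 24, 68 and 1 of all genes called in WT, KO and KI. The PFOA and vehicle libraries of a genotype overlapped for all 8 members, while they lay apart, in either direction, for 22.5% of genes in WT, 12.8% in KO and 8.23% in KI.

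Pdk4 spread most. In WT it was at 35.96 and 32.8 CPM on vehicle and 34.3, 23.1 and 90.3 CPM on PFOA. In KO it was at 20.5, 12.7 and 13.4 CPM on vehicle and 28.7, 22.4 and 17.8 CPM on PFOA. In KI it was at 42.7, 100.4 and 63.0 CPM on vehicle and 180.6, 74.1 and 6.29 CPM on PFOA. Thus the highest and the lowest of all 17 libraries, 28.7-fold apart, were both in the KI PFOA group (mice 57 and 139). The fitted log2 fold changes for PFOA were 0.52 (SE 0.75) in WT, 0.59 (SE 0.70) in KO and 0.34 (SE 0.64) in KI, each under 1 standard error. In KI, the mean of the log2 values gave the opposite sign, -0.54, and the fitted value was -0.77 without mouse 57, 0.89 without mouse 139, -1.01 among females and -1.15 after correction for the i5 index.

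Angptl4 was at 68.3 and 54.2 CPM in WT on vehicle and 72.0, 60.2 and 75.2 CPM on PFOA. In KO the values were 21.2, 25.6 and 36.8 CPM on vehicle and 44.4, 46.0 and 26.6 CPM on PFOA. KI libraries held 35.7, 82.7 and 66.4 CPM on vehicle and 76.3, 66.7 and 9.22 CPM on PFOA. Again the lowest value was that of KI PFOA mouse 139, and the other 5 KI libraries reached at least 35.7 CPM. The log2 fold changes were 0.17 (SE 0.51) in WT, 0.48 (SE 0.47) in KO and -0.28 (SE 0.45) in KI, the last turning to 0.21 without mouse 139.

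Cpt1a and Plin2 were nearly level. Cpt1a had a mean of 116 ± 17.2 CPM (SD, n = 2) in WT on vehicle and 133 ± 7.21 (n = 3) on PFOA, 112 ± 40.8 and 119 ± 3.88 in KO, and 143 ± 2.64 and 124 ± 39.1 in KI. The large SD in KO on vehicle came from library 137, at 65.9 CPM, and that in KI on PFOA from mouse 139, at 79.5 CPM. Plin2 was lowest in the same KO library 137, at 24.9 CPM, and in WT library 122, at 38.8 CPM, and it ranged from 43.3 to 78.5 CPM in the other 15 libraries. The log2 fold changes in WT, KO and KI were 0.20, 0.08 and -0.20 for Cpt1a and 0.15, 0.15 and -0.20 for Plin2, with standard errors of 0.23 to 0.32. Without libraries 122 and 137, those of Plin2 in WT and KO turned to -0.18 and -0.21, and that of Cpt1a in KO turned to -0.19.

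Of the thioesterases, Acot1 had a lower mean on PFOA in each genotype, within the spread. It had a mean of 23.7 ± 3.61 CPM in WT on vehicle and 21.4 ± 2.97 on PFOA, 16.5 ± 4.09 and 13.8 ± 1.52 in KO, and 28.3 ± 7.13 and 21.7 ± 11.1 in KI. For Acot2 the means were 17.95 ± 0.606 and 17.3 ± 1.03 CPM in WT, 13.6 ± 3.005 and 14.2 ± 1.48 in KO, and 22.2 ± 2.72 and 19.2 ± 3.43 in KI. The log2 fold changes for PFOA in WT, KO and KI were -0.15, -0.26 and -0.38 for Acot1 and -0.06, 0.04 and -0.21 for Acot2, with unadjusted p of 0.227 or more.

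Ucp3 averaged 3.51 ± 0.823 CPM in WT on vehicle and 4.39 ± 1.36 on PFOA, 3.70 ± 1.01 and 4.12 ± 0.618 in KO, and 5.20 ± 1.60 and 3.34 ± 2.08 in KI. Its fitted fold change in KI, -0.61 (log2, SE 0.39), was the lowest estimate of a member in the fits by genotype, with an unadjusted p of 0.129. It was -1.26 (unadjusted p = 0.00504, adjusted p = 1) without KI PFOA mouse 57. Pex11a averaged 12.98 ± 2.72 CPM in WT on vehicle and 11.7 ± 1.34 on PFOA, 8.49 ± 1.09 and 8.20 ± 0.948 in KO, and 11.8 ± 1.5004 and 12.8 ± 2.604 in KI. Its log2 fold changes were -0.15, -0.05 and 0.12.

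**Figure D2:**
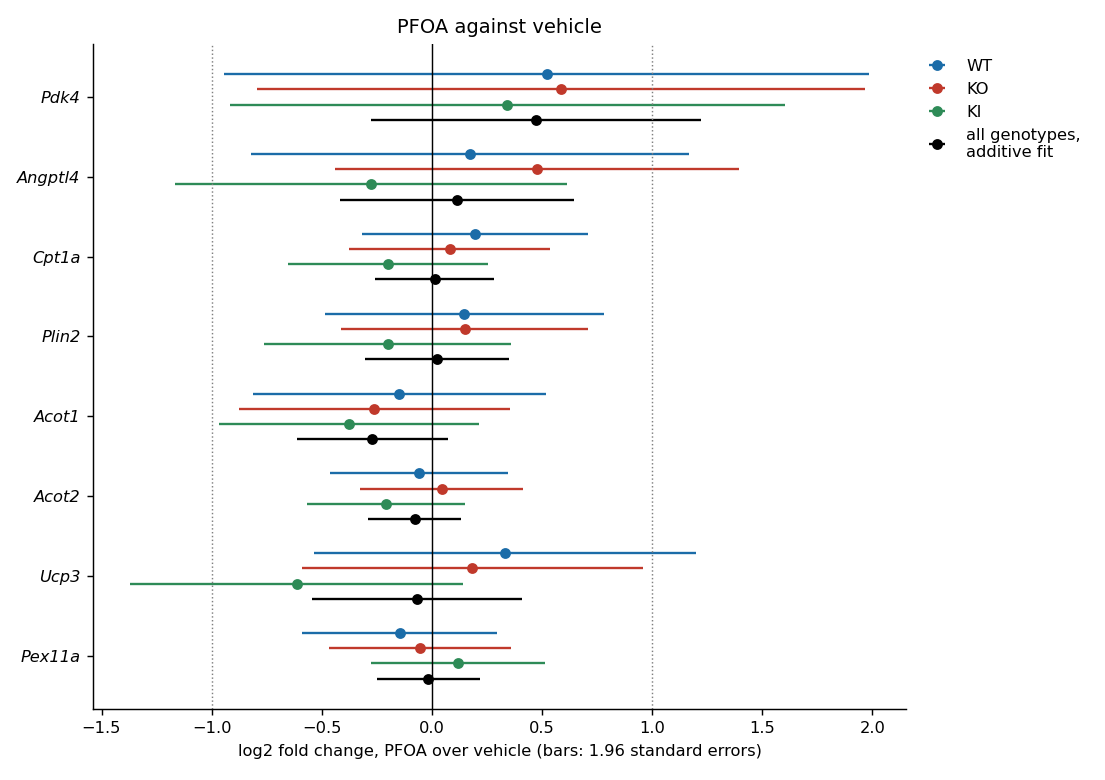
Fitted log2 fold change for PFOA against vehicle of each member in WT, KO and KI and in the additive fit over all 17 libraries, with bars for the 95% interval and dotted lines at a 2-fold change. Every bar crosses 0, and in the additive fit only the bar of Pdk4 (-0.28 to 1.22) reaches a 2-fold change.

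Over the 3 genotypes together, with genotype and exposure as additive terms, 0 of 8 members were called (background 0%) and 0 had an unadjusted p under 0.05 (background 8.27%). Intervals were narrower here. The log2 fold change was 0.47 for Pdk4 (95% interval from the standard error -0.28 to 1.22), so that its interval reached beyond a 2-fold rise. For the other 7 members the intervals stayed within a 2-fold change in either direction, between -0.61 (lower limit for Acot1) and 0.64 (upper limit for Angptl4). The estimates were 0.11 for Angptl4, 0.01 for Cpt1a, 0.02 for Plin2, -0.27 for Acot1, -0.08 for Acot2, -0.07 for Ucp3 and -0.02 for Pex11a, 4 above and 4 below 0, with a median of -0.00176 against -0.0124 for all genes. Without KI PFOA mouse 139, Pdk4 reached 0.67 (unadjusted p = 0.0148, adjusted p = 0.356). An exact permutation test, two-sided, over the 4000 relabelings of exposure within genotypes gave p of 0.162 (Acot1) to 0.992 (Angptl4), unadjusted for the 8 genes. Within a single genotype the exact test cannot go below p = 0.1, and the lowest p it gave was 0.2.

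No difference in the response between genotypes was detected. For the difference of the PFOA effects between KO and WT, KI and WT, and KI and KO, edgeR called 0 of 8 members (background 0% in each), and 0 had an unadjusted p under 0.05, against 7.46%, 4.58% and 5.42% of all genes. These differences had standard errors of 0.26 to 1.02 on the log2 scale, so only large ones could have been seen.

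The second question was whether the genotypes differed in the level of these genes regardless of PFOA. Of the 8 members, 5 (Pdk4, Angptl4, Acot1, Acot2 and Pex11a) were lower in KO than in WT at an unadjusted p under 0.05 (5.47% of all genes were), and the same 5 were higher in KI than in KO (2.25% of all genes). Cpt1a, Plin2 and Ucp3 did not pass in either comparison. Both comparisons used the same KO libraries, so the second is not independent of the first, and it was added after the values were seen. After adjustment over all genes, Angptl4 and Pex11a had an adjusted p under 0.2 for KO against WT (2.71% of all genes were lower so), both with less than a 2-fold fall, and no member did for KI against KO.

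**Figure D3:**
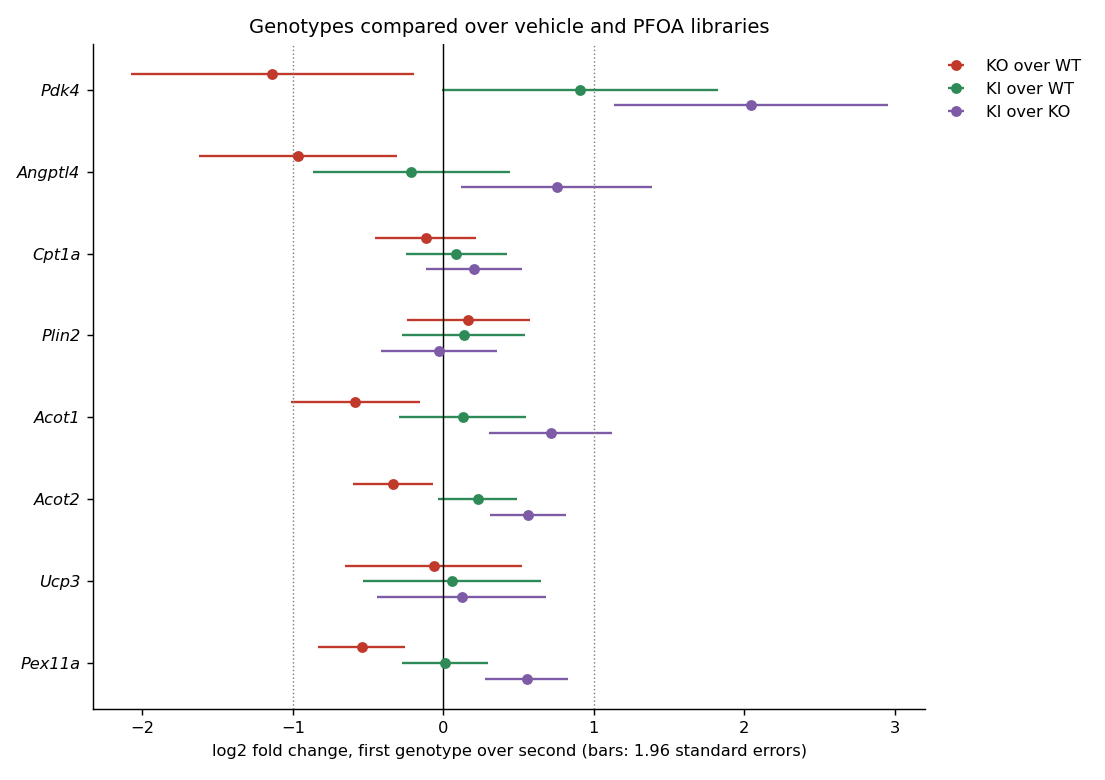
Fitted log2 fold change between genotypes over vehicle and PFOA libraries together (5 WT, 6 KO and 6 KI libraries), with bars for the 95% interval and dotted lines at a 2-fold change. Pdk4, Angptl4, Acot1, Acot2 and Pex11a lie below 0 for KO over WT and above 0 for KI over KO, while Cpt1a, Plin2 and Ucp3 lie near 0.

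In KO against WT over both exposures, Angptl4 was at 21.2 to 46.0 CPM (median 31.7) in the 6 KO libraries and 54.2 to 75.2 CPM (median 68.3) in the 5 WT libraries. The groups did not overlap. Its log2 fold change was -0.97 (SE 0.33, adjusted p = 0.172), just short of a 2-fold fall, and it passed the fold limit without KO PFOA mouse 52 (-1.06, adjusted p = 0.193) or mouse 154 (-1.08, adjusted p = 0.181). The adjusted p exceeded 0.2 without any 1 of the WT libraries or without KO mouse 155, 137, 145 or 149 (0.207 to 0.305), with sex as a covariate (0.3004) and with DESeq2 on the same genes (0.215). Pex11a was at 7.18 to 9.71 CPM (median 8.27) in KO and 10.8 to 14.9 CPM (median 11.1) in WT, again without overlap. Its log2 fold change was -0.54 (SE 0.15, adjusted p = 0.0658), and the adjusted p stayed below 0.2 under every alternative except the i5 index covariate (0.463) and females only (0.635). KO libraries all below the WT libraries were found for 1.57% of all genes. In an exact permutation test of genotype within exposure, two-sided, with 200 relabelings, Angptl4 and Pex11a each gave p = 0.005, the smallest it can give, unadjusted for the 8 genes. Groups that do not overlap must give this p, so it only restates the lack of overlap. The test was added after the values were seen.

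For Pdk4, Acot1 and Acot2 the libraries of KO and WT overlapped, and the adjusted threshold was not passed. Pdk4 had a median of 19.1 CPM (12.7 to 28.7) in KO and 34.3 CPM (23.1 to 90.3) in WT, a log2 fold change of -1.14 (SE 0.48, adjusted p = 0.298). Acot1 had a median of 14.1 CPM (12.7 to 21.1) in KO and 21.9 CPM (18.2 to 26.2) in WT (log2 -0.59, adjusted p = 0.222). Acot2 had a median of 14.2 CPM (10.6 to 16.6) in KO and 17.8 CPM (16.1 to 18.4) in WT (log2 -0.33, adjusted p = 0.267). Exact permutation p-values were 0.015, 0.01 and 0.02 in this order. Cpt1a (-0.12), Plin2 (0.17) and Ucp3 (-0.06) had adjusted p of 0.819 or more, and the sign of Ucp3 turned when sex (0.33) or the i5 index (0.12) was a covariate and among females (0.11).

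In counts, 0 of 8 members passed the call rule for KO against WT over both exposures, against 2.36% of all genes, while 2 of 8 had an adjusted p under 0.2 at any fold and were lower, against 2.71%. At an unadjusted p under 0.05, 5 of 8 were lower, against 5.47%. The median of the 8 members was -0.44, against 0.02 for all genes. Pdk4 was called without KI PFOA mouse 139 (-1.12, adjusted p = 0.0646), a library outside this comparison that adds to the common spread, and when only WT and KO libraries were fitted (-1.13, adjusted p = 0.0457).

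All KO libraries were female, so the comparison was repeated by sex and index. Among female libraries only (2 WT and 6 KO), the log2 fold changes were -1.04 for Angptl4, -0.85 for Pdk4, -0.65 for Acot1, -0.39 for Pex11a and -0.36 for Acot2, of which Angptl4 and Acot1 had an unadjusted p under 0.05 (0.0417 and 0.0469) and none an adjusted p under 0.2. The i5 index was unevenly spread over the genotypes, so the corrected values rest on few libraries. After correction for it, Pdk4 moved to -0.02 (adjusted p = 0.995) and Angptl4 to -0.65 (adjusted p = 0.669), whereas Pex11a (-0.44), Acot1 (-0.55) and Acot2 (-0.39) moved less. On vehicle alone, 2 of 8 members were lower in KO at an unadjusted p under 0.05 (background 5.42%), Angptl4 at -1.13 (adjusted p = 0.340) and Pex11a at -0.60 (adjusted p = 0.302), and 0 passed the call rule (background 1.37%). Without libraries 122 and 137, 0 of 8 had an unadjusted p under 0.05 on vehicle, with Angptl4 at -1.11 (unadjusted p = 0.113) and Pex11a at -0.29 (unadjusted p = 0.330), which leaves 1 WT and 2 KO libraries. Over both exposures the same 5 members had an unadjusted p under 0.05 without them.

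Humanized and null mice came from the same breeding, and their comparison over both exposures was added after the values were seen. Pdk4 was at 12.7 to 28.7 CPM in KO and 6.29 to 180.6 CPM (median 68.6) in KI, where 5 of the 6 libraries lay above every KO library and mouse 139 lay below them all. Its log2 fold change over both exposures was 2.04 (SE 0.46, unadjusted p = 0.000262, adjusted p = 0.643). Pex11a was at 10.03 to 15.8 CPM (median 11.96) in KI, above all KO libraries, with a log2 fold change of 0.55 (SE 0.14, unadjusted p = 0.000859, adjusted p = 0.968). KI libraries all above the KO libraries were found for 0.0705% of all genes.

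Acot2 in KI had a median of 20.8 CPM (15.2 to 25.3), 0.56 above KO on the log2 scale (SE 0.13). Acot1 had a median of 27.7 CPM (9.22 to 34.6), 0.71 above KO (SE 0.21). Angptl4 had a median of 66.5 CPM (9.22 to 82.7), 0.75 above KO (SE 0.32). Exact permutation of genotype within exposure (400 relabelings, smallest possible p = 0.005) gave p = 0.005 for Pex11a, 0.01 for Acot2, 0.07 for Acot1, 0.075 for Pdk4 and 0.395 for Angptl4, unadjusted for the 8 genes. For Pex11a this p was fixed by the lack of overlap. The permutation test used means of log2 values, on which mouse 139 weighs more than on the fitted means.

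Of the 8 members, 5 were higher in KI than in KO at an unadjusted p under 0.05 over both exposures (background 2.25%) and the same 5 on vehicle (background 2.84%), with log2 fold changes on vehicle of 2.17 for Pdk4, 1.13 for Angptl4, 0.77 for Acot1, 0.69 for Acot2 and 0.46 for Pex11a. The call rule passed 0 of 8 members in each, against 0.00742% of all genes over both exposures, which is also the share at any fold in this direction, and 0.00371% on vehicle. Without mouse 139, Pdk4 (2.31, adjusted p = 0.00291) and Angptl4 (1.01, adjusted p = 0.0914) were called over both exposures. Without libraries 122 and 137, Pdk4 (2.39, unadjusted p = 0.0114) and Acot2 (0.54, unadjusted p = 0.00961) had an unadjusted p under 0.05 on vehicle and Angptl4, Acot1 and Pex11a did not, and over both exposures Angptl4 did not (0.64, unadjusted p = 0.0694), while Plin2 was lower in KI (-0.21, unadjusted p = 0.0272, adjusted p = 0.621). Among females the 5 log2 fold changes were 1.63, 0.71, 0.73, 0.54 and 0.63 for Pdk4, Angptl4, Acot1, Acot2 and Pex11a.

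No member differed detectably between KI and WT. The log2 fold changes of KI against WT over both exposures ran from -0.21 for Angptl4 to 0.91 for Pdk4, and 0 of 8 members were called (background 1.37%) or higher at an unadjusted p under 0.05 (background 5.66%). On vehicle the counts were 0 of 8 as well (background 0.857% called and 5.33% higher at an unadjusted p under 0.05). Pdk4, at 0.91 (SE 0.47), was called without mouse 139 (1.18, adjusted p = 0.0943) and after correction for the i5 index (1.46, adjusted p = 0.171). The intervals were -0.86 to 0.44 for Angptl4, -0.27 to 0.30 for Pex11a, -0.30 to 0.55 for Acot1 and -0.03 to 0.49 for Acot2.

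**Figure D4:**
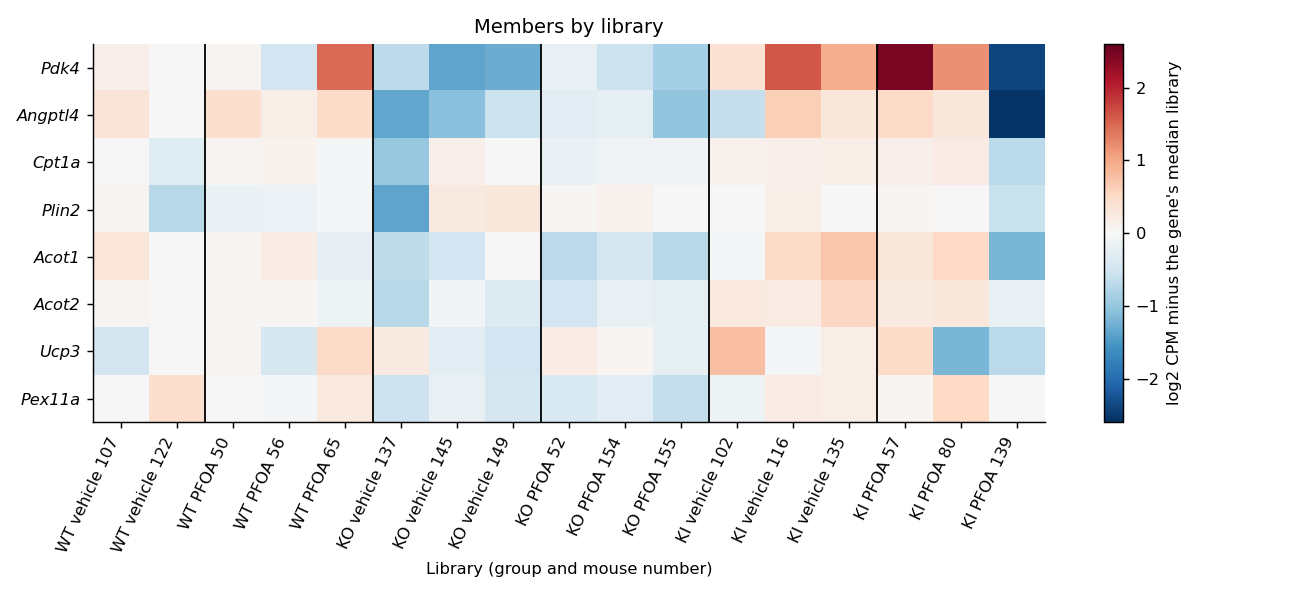
Each member (rows) in each of the 17 libraries (columns, named by group and mouse number), as log2 CPM minus the median library of the gene, with red above and blue below the median. Pdk4 and Angptl4 carry the strongest colours, and the KI PFOA library of mouse 139 is low in both.

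Variation between mice of a group was uneven among the members. The pooled within-group SD of log2 CPM was 1.19 for Pdk4, higher than in 98.2% of all tested genes, and 0.81 for Angptl4, higher than in 85.3%. It was 0.21 for Acot2 and for Pex11a, lower than the 0.26 that was the median of the 14209 genes with a mean log2 CPM over 2. The other 4 lay between 0.35 and 0.47. From the lowest to the highest library, Angptl4 ranged 8.97-fold, Ucp3 3.89-fold, Acot1 3.75-fold, Plin2 3.15-fold, Acot2 2.39-fold, Cpt1a 2.29-fold and Pex11a 2.20-fold.

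Most pairs of members had a positive correlation between mice. Of the 28 pairs, 23 had a positive Pearson correlation of their deviations from the group means over the 17 libraries (median r 0.41), and 9 had an adjusted p under 0.05 by permutation with 100000 draws (Benjamini-Hochberg over the 28 pairs). Over all 17 libraries the closest pair was Angptl4 and Acot1 (r = 0.91, rho = 0.80, adjusted permutation p = 9.33e-05 for r and 0.00392 for rho, unadjusted permutation p = 1e-05, the smallest these draws can give), with r = 0.81 without the libraries of KI PFOA mice 139 and 57. Cpt1a and Plin2 followed (r = 0.90, rho = 0.78), at 0.82 without KO vehicle library 137 and mouse 139. Pdk4 and Angptl4 had r = 0.87 (rho = 0.73), which dropped to 0.57 without mice 139 and 57. Pdk4 and Acot1 dropped from r = 0.65 to 0.11 without the same mice. Without libraries 122 and 137 the order changed. Of the 28 pairs, 12 then had an adjusted permutation p under 0.05, and the closest was Angptl4 and Plin2 (r = 0.94, against 0.48 over all 17), followed by Pdk4 and Plin2 (r = 0.93, against 0.20). In these 15 libraries Angptl4 and Acot1 had r = 0.91, and Cpt1a and Plin2 had r = 0.88 with rho = 0.28. Without KI PFOA mice 139 and 57 as well, r was 0.78 for Angptl4 and Plin2 and 0.75 for Pdk4 and Plin2. Deviations in these libraries share RNA quality and tissue makeup as well as the mouse, and their part was not tested. No share for pairs of other genes is given here, so these counts cannot be called particular to the members.

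The genes most like each member over all 17 libraries were taken by Pearson correlation of log2 CPM among the 19201 genes whose mean reached 1 CPM. Eci2, an enzyme of fatty acid oxidation, was among the closest pair for Acot2 (r = 0.82) and Pex11a (r = 0.78). The first for Pdk4 was BC018473 (r = 0.85), and Slc25a42, a mitochondrial carrier of coenzyme A, was the first for Acot1 (r = 0.80). Angptl4 was nearest to Irs2 (r = 0.91) and Tsc22d3 (r = 0.91), which fasting and glucocorticoids are known to raise. Ucp3 was nearest to Kcnj11 (r = 0.86) and Pck1 (r = 0.84), and Pex11a to Prpf4 (r = 0.79). Plin2 was nearest to Gpm6b (r = 0.96) and Ywhaq (r = 0.95), and Cpt1a to Pon2 and Mcur1 (r = 0.88 for both), where rho was lower (0.65 to 0.84 over these 4). These are descriptions over libraries that share genotype and quality differences.

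The other genes of the pathway were taken from lists set by known function. In a list of 43 further PPAR targets, 38 were tested. PFOA over the 3 genotypes called 0 of them (background 0%). At an unadjusted p under 0.05, 1 was higher, a share no larger than that of all genes (1024 of 26946 were higher). This was Lpl, the lipase that Angptl4 inhibits. The log2 fold change of Lpl was 0.75 in WT, 0.88 in KO and 0.85 in KI, and 0.83 over all (SE 0.17, unadjusted p = 8.56e-05, adjusted p = 0.288), so the adjusted threshold was not passed. Next by p were Cd36, a fatty acid transporter (0.32, unadjusted p = 0.0941), and Hadhb, an enzyme of mitochondrial fat oxidation (0.29, unadjusted p = 0.106).

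For KO against WT over both exposures, 10 of the 38 were lower at an unadjusted p under 0.05, against 5.47% of all genes. Another 2 were higher, against 2003 of all 26946 genes, and the median was -0.20. Eci2 (-0.55, adjusted p = 0.0862), Acaa1a (-0.48, adjusted p = 0.110), Aldh3a2 (-0.38, adjusted p = 0.129) and Slc22a5 (-0.60, adjusted p = 0.149) fell at an adjusted p under 0.2 below the fold limit, and Acaa1b rose (0.77, adjusted p = 0.174). Acaa1a and Acaa1b are near-identical copies, so their counts are uncertain.

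For KI against KO over both exposures, 21 of the 38 were higher at an unadjusted p under 0.05 (2.25% of all genes) and 2 lower, with a median of 0.37. Of 11 cardiac muscle genes, 9 were higher in the same comparison (median 1.88). The part of cardiac muscle RNA in the levels of the 38 genes was not tested. For KI against WT, 6 were higher at an unadjusted p under 0.05 (5.66% of all genes) and 1 lower. Among these, Crat, which moves acetyl groups between coenzyme A and carnitine, was higher (0.55, adjusted p = 0.0157) and Acaa1a lower (-0.56, adjusted p = 0.0778).

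Relatives of the members were examined alongside. Of 21 tested relatives (other Pdk, Angptl, Cpt1, Plin, Acot, Ucp and Pex11 genes), 0 were called in KO against WT, KI against WT, KI against KO or with PFOA over the 3 genotypes. At an unadjusted p under 0.05, 3 were higher in KO than in WT (2003 of all 26946 genes were) and 1 was lower (5.47% of all genes). Cpt1c (0.88, adjusted p = 0.0977) and Acot7 (0.55, adjusted p = 0.122) rose in KO. Of the 17 receptors and cofactors, PFOA called 0, and the log2 fold changes were 0.24 for Ppard (adjusted p = 0.535) and 0.22 for Pparg (adjusted p = 0.735). In KO, Lpin1, a phosphatidate phosphatase that also assists PPARα in transcription, fell by 0.69 (adjusted p = 0.0862) and Ep300, an acetyltransferase coactivator, fell by 0.32 (adjusted p = 0.141).

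Glucocorticoid-responsive genes differed between KO and WT too. Of 12 such genes, 5 were called lower in KO than in WT over both exposures (2.36% of all genes were called, in either direction), Ddit4 (-1.503), Fkbp5 (-1.52), Per1 (-1.13), Tsc22d3 (-1.13) and Zbtb16 (-1.04), with adjusted p of 0.0959 or less, and 8 were lower at an unadjusted p under 0.05 (5.47% of all genes). Their summed level was 1821 to 2378 CPM in WT, 901 to 1582 in KO and 883 to 2282 in KI. Mouse 139, the lowest for Pdk4, Angptl4 and Acot1, also had the lowest sum, 883 CPM, with Fkbp5 at 19.4 CPM against 17.2 to 147 in the other KI libraries. KI vehicle mouse 102, with a sum of 1007 CPM and Fkbp5 at 17.2 CPM, had Pdk4 at 42.7 CPM, above every KO library, and Angptl4 at 35.7 CPM, within the KO range. For KI against KO, 6 of the 12 were higher at an unadjusted p under 0.05 (2.25% of all genes) and 0 were called. Of 12 clock genes, 2 were called higher and 2 lower in KO than in WT (2.36% of all genes were called, in either direction). Their sums were 1392 to 1573 CPM in WT, 855 to 1164 in KO and 1001 to 1486 in KI. The part of either in the genotype differences was not tested.

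**Figure D5:**
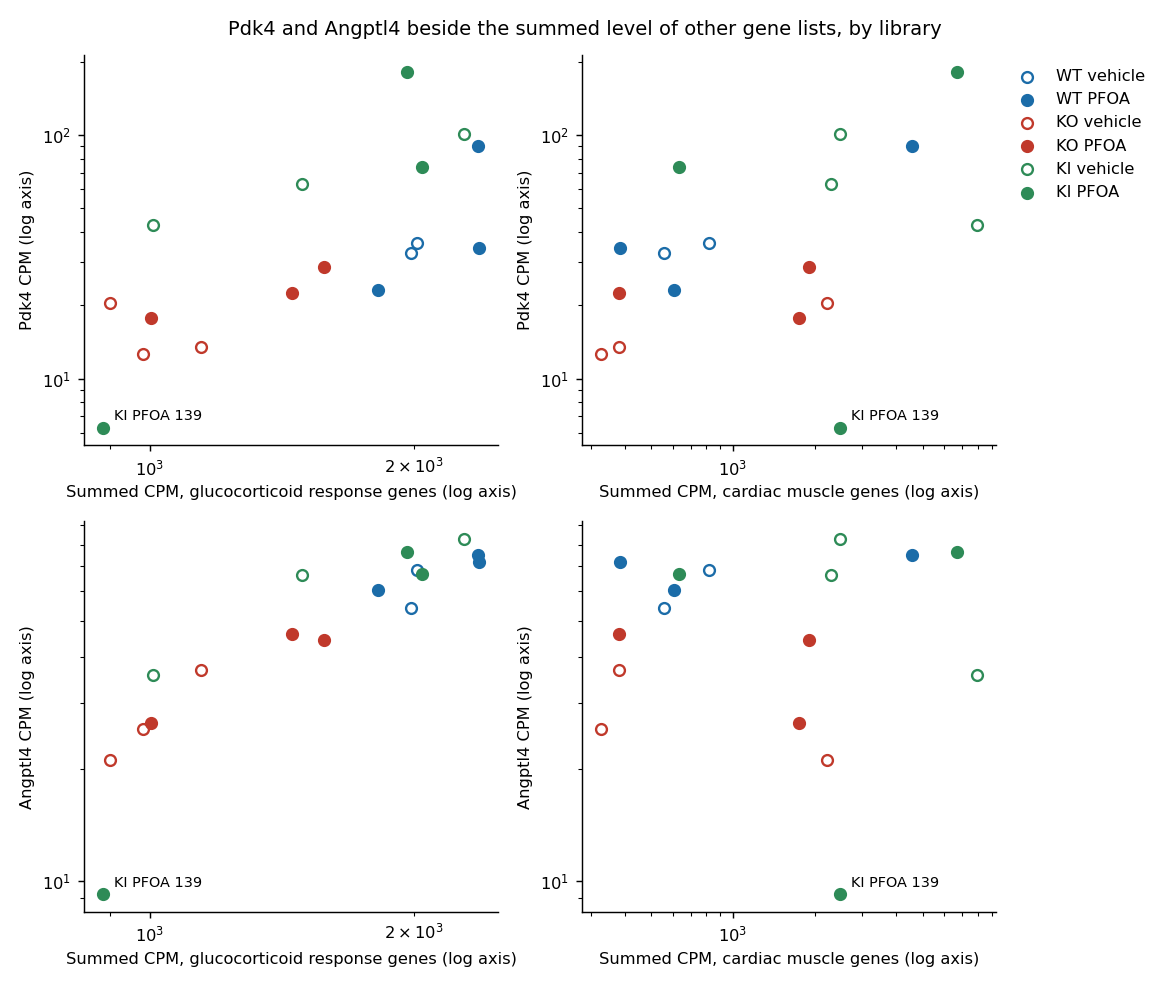
Pdk4 (top) and Angptl4 (bottom) CPM in each library against the summed CPM of 12 glucocorticoid response genes (left) and 11 cardiac muscle genes (right), all on log axes, with open circles for vehicle and filled for PFOA. Libraries with a low glucocorticoid sum have low Angptl4, and the KI PFOA library of mouse 139 is lowest in both genes and in that sum, while its cardiac sum (2488 CPM) lies above the median of the 17 libraries (1749 CPM).

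The level of cardiac muscle genes differed between libraries too. Heart and fat express Pdk4, Ucp3 and Angptl4 at high levels. The summed CPM of 11 cardiac muscle genes was 385 to 4586 in WT, 327 to 2224 in KO and 634 to 7961 in KI. Of the 11, 9 were higher in KI than in KO at an unadjusted p under 0.05 (2.25% of all genes), with 0 called. Myh6, a defining heart gene, was at 161 to 5543 CPM, and at 0 in no library. The KI PFOA library of mouse 57, the highest for Pdk4, had a cardiac sum of 6668 CPM, and WT PFOA mouse 65, the highest WT library for Pdk4, had 4586 CPM. KI vehicle mouse 102 had the highest cardiac sum, 7961 CPM, with Pdk4 at 42.7 CPM. KI PFOA mouse 80 had a cardiac sum of 634 CPM with Pdk4 at 74.1 CPM. Both of these Pdk4 values lay above every KO library. Ucp3 was highest in the libraries of mice 102, 65 and 57, which also had the highest cardiac sums. Adipocyte genes summed to 21.1 to 177 CPM in WT, 22.1 to 239 in KO and 22.6 to 272 in KI over 12 genes, with 0 called, and Adipoq and Ucp1 were at 0 in some libraries. Skeletal muscle genes (9 tested) summed to 4.50 to 70.9 CPM. Where in the samples the cardiac muscle RNA came from was not examined. The part of cardiac muscle, fat and skeletal muscle RNA in the levels of the members and of the further PPAR targets was not tested. In whole lung, fewer cells of a type and less RNA per cell cannot be told apart.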

How the data were processed

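RNA of whole lung was extracted with RNeasy kits, and stranded total RNA libraries were made with the SMARTer Pico v2 kit. Per the labels and the study's methods, the authors trimmed reads (phred 20), aligned them to mm10 with STAR 2.6 and counted genes in Partek. The annotation release and use of strand in counting are not given in the sources used here. The authors deposited estimated counts per gene, without normalization, in which 30.1% of cells were not whole. These were rounded here, and genes with under 20 counts over the 17 libraries were left out.

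TMM factors and edgeR 4.0.16 (quasi-likelihood F-test, R 4.3.3) were used with a coefficient per group over all 17 libraries. For PFOA over the 3 genotypes and for genotypes over both exposures, additive terms were used. The Benjamini-Hochberg adjustment covered all 26946 genes. A call needed both an adjusted p below 0.2 and a change of more than 2-fold, and 95% intervals were taken as normal intervals from the standard error. Standard errors were taken as the fold change over the root of F. Log2 CPM used a prior count of 2. Exact permutation tests were two-sided on mean log2 CPM (numpy 2.4.6). Exon lengths came from GENCODE M21, in which 96.7% of gene names occurred once. Alternatives were DESeq2 1.42.0, other scalings and filters, covariates for sex and i5 index, and each library left out. The fit of female libraries, KI against KO over both exposures and the genotype permutations were added after seeing the data. Scripts were tested on simulated data.

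The members were taken by name as known PPAR targets, and the choice of these genes and of 15 further gene lists was made with earlier results of these data known. Named were all members, Ppara, from each further list up to 3 genes with the smallest p for PFOA over the 3 genotypes and the genes called in a comparison, and the 2 genes most like each member. A gene that this rule names is not reported here. Genes at an adjusted p under 0.2 without the fold limit, and lung, heart, fat and liver markers by library were named after their values were seen.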

Additional observations from a re-analysis of the deposited data

How the results depend on the processing

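No member was called for PFOA, in any genotype or over all 3, under any alternative, DESeq2 included. Estimates near 0 changed sign with the processing, and the cause was not tested. For PFOA over the 3 genotypes, Cpt1a was -0.00169 with DESeq2 (same genes and default filters), -0.00237 with RLE factors, -0.00804 with upper-quartile factors, -0.00201 with filterByExpr and -0.00547 with 20 counts in 1 library. Under the same settings in that order, Acot2 for PFOA in KO was -0.00602, -9.4e-05, -0.0509, -0.00518 and -0.0173, and Cpt1a in KO was -0.00261 with upper-quartile factors.

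Without libraries 122 and 137, PFOA in WT gave -0.185 for Plin2 and 0.0924 for Pex11a. PFOA in KO gave -0.192 for Cpt1a, -0.215 for Plin2 and -0.102 for Acot2. PFOA over the 3 genotypes gave -0.0122 for Angptl4, -0.140 for Cpt1a, -0.201 for Plin2 and 0.0338 for Pex11a. KI against WT gave -0.0101 for Cpt1a and -0.0188 for Plin2. The correlations of Ucp3 with Cpt1a and Plin2 turned to 0.0578 and 0.208. In KO and KI libraries only, PFOA gave -0.0692 for Cpt1a, -0.0355 for Plin2 and 0.0268 for Pex11a.

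In KO all PFOA libraries carried an i5 index that no vehicle library did, so exposure and index cannot be told apart within KO and the corrected values rest on index differences in WT and KI. With the i5 index in the model, PFOA in KO gave -0.181 for Ucp3 and 0.191 for Pex11a, PFOA in KI gave -1.15 for Pdk4, and PFOA over the 3 genotypes gave -0.0255 for Angptl4, -0.00726 for Cpt1a and 0.0370 for Pex11a. KO against WT gave 0.121 for Ucp3, and KI against KO gave 0.0619 for Plin2. With sex as a covariate, Ucp3 was 0.325 for KO against WT and -0.162 for KI against KO, and Pex11a was -0.000414 for KI against WT.

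Among females, chosen after seeing the data, PFOA in WT gave -0.0666 for Pdk4 and -0.246 for Plin2, and PFOA in KI gave -1.01 for Pdk4. PFOA over the 3 genotypes gave -0.0986 for Pdk4, -0.0766 for Angptl4, -0.0475 for Cpt1a, -0.0748 for Plin2 and 0.0132 for Pex11a. Ucp3 was 0.108 for KO against WT, -0.194 for KI against WT and -0.302 for KI against KO, and KI against WT gave -0.0326 for Cpt1a and -0.0375 for Plin2.

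Leaving out each library in turn, PFOA in WT ranged from -0.296 to 0.0194 for Acot1, -0.257 to 0.858 for Pdk4, -0.349 to 0.0780 for Pex11a and -0.199 to 0.608 for Plin2. PFOA in KO ranged from -0.0948 to 0.209 for Acot2, -0.185 to 0.281 for Cpt1a, -0.132 to 0.0565 for Pex11a and -0.207 to 0.388 for Plin2. PFOA in KI ranged from -0.696 to 0.212 for Angptl4, -0.361 to 0.0397 for Cpt1a, -0.770 to 0.889 for Pdk4 and -0.0594 to 0.207 for Pex11a. PFOA over the 3 genotypes ranged from -0.0735 to 0.103 for Cpt1a, -0.0843 to 0.0374 for Pex11a, -0.0971 to 0.0926 for Plin2 and -0.185 to 0.0685 for Ucp3. KO against WT ranged from -0.191 to 0.00371 for Cpt1a and -0.190 to 0.114 for Ucp3. KI against WT ranged from -0.363 to 0.0488 for Angptl4, -0.0896 to 0.103 for Pex11a and -0.110 to 0.251 for Ucp3. KI against KO ranged from -0.208 to 0.0657 for Plin2 and -0.0588 to 0.301 for Ucp3.

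Members past the call rule numbered 0 in each comparison. For KO against WT over both exposures this became 1 when only the groups compared were fitted, 2 with no fold limit and 0 to 1 with a library left out. For KI against WT over both exposures and on vehicle it became 1 with the i5 index, and for KI against KO 1 with DESeq2 at default filters. With a library left out it was 0 to 1 for KO against WT on vehicle and for KI against WT over both exposures, and 0 to 2 for KI against KO, the highest in each of these 3 without KI PFOA mouse 139. Members at an unadjusted p under 0.05 for KO against WT over both exposures went from 5 to 2 among females (Angptl4 and Acot1) and to 2 with the i5 index (Acot2 and Pex11a). For PFOA they went from 0 to at most 2, in KI with the i5 index. With robust estimation the adjusted p of Angptl4 was 0.313 and without libraries 122 and 137 it was 0.227.

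Counts of all called genes moved more. DESeq2 on the same genes called 26 genes for PFOA over the 3 genotypes against 0 by edgeR, and females alone gave 27. KO against WT on vehicle went from 368 genes to 29 when only the groups compared were fitted, 43 without libraries 122 and 137, 25 among females, 153 with the i5 index, 199 with sex and 633 with DESeq2 at default filters, and from 30 to 1706 with a library left out. KO against WT over both exposures went from 637 to 215 among females, and KI against WT from 368 to 118. PFOA in WT went from 0 to as many as 1659 genes with a library left out. No paired analysis was possible because the groups share no mouse numbers. With 2 or 3 libraries a group, and 14 to 50 counts for Ucp3, small changes were not detectable.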

Other observations

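Lists of the clock and of other cell types gave further values. Of 12 clock genes, Arntl (log2 1.22, adjusted p = 0.0155) and Npas2 (1.41, adjusted p = 0.129) were called higher in KO than in WT over both exposures by edgeR, and Per1 (-1.13, adjusted p = 0.00146) and Per2 (-1.13, adjusted p = 0.00580) were called lower. Tef, Hlf, Per3 and Ciart also fell at an adjusted p under 0.2, by 0.90, 0.89, 0.86 and 0.75 on the log2 scale. With PFOA over the 3 genotypes, 1 clock gene was higher and 2 were lower at an unadjusted p under 0.05 (background 8.27% in either direction), and 0 had an adjusted p under 0.2. The hour of dissection of each mouse is not given in the sources used here.

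Of 8 genes of club and ciliated cells, 8 were lower with PFOA in WT at an unadjusted p under 0.05 (median log2 fold change -1.30), 0 in KO (median -0.31) and 0 in KI (median -0.17), against 7.35%, 9.79% and 2.59% of all genes in either direction. All genes of the list but Scgb3a2 are among those that the study reported as lower with PFOA in these WT libraries. The WT count is therefore no independent result, and the WT libraries also enter the fit over the 3 genotypes. The difference between genotypes was not tested for this list. Over the 3 genotypes 6 were lower (median -0.56, background 8.27% in either direction), and 0 passed after adjustment. The 6 include Foxj1, the regulator of ciliated cells (-0.58, adjusted p = 0.468), Ccdc40 (-0.62, adjusted p = 0.468) and Ak7 (-0.58, adjusted p = 0.475). The study itself named Ccdc40 among genes that passed its thresholds artifactually, with weak support, because vehicle lungs were few. The WT vehicle group held 2 libraries, 1 of them library 122. The summed level of the list was 11579 and 25256 CPM in the WT vehicle libraries and 4806 to 10938 CPM in the other 15. In KO against WT, the secretory genes Cyp2f2 (-0.80, adjusted p = 0.0708) and Scgb1a1 (-0.71, adjusted p = 0.171) fell.

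Of 9 alveolar macrophage genes, 3 were higher with PFOA over the 3 genotypes at an unadjusted p under 0.05 (background 8.27% in either direction), Chil3 (0.95), Itgax (0.33) and Mrc1 (0.43), each with an adjusted p of 0.436 or more. In KO against WT, 1577 of all 26946 genes passed an adjusted p under 0.2, in either direction. Of 6 fibroblast genes 1 did, Col1a1 (0.56, adjusted p = 0.0442), while 3 of the 6 lay above 0 and 3 below with a median of 0.00239. For the macrophage list it was 1 of 9, Itgax (0.47, adjusted p = 0.141), with a median of 0.20. Lists of type 2 cells (8 genes), type 1 cells (6) and endothelium (7) held 0 genes at an adjusted p under 0.2 for PFOA over the 3 genotypes or between genotypes over both exposures. Of 5 tested hepatocyte genes, Alb was called higher in KO than in WT (3.53, adjusted p = 0.142, background 2.36% in either direction), although it was at 3.59 CPM or less in every library.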
